A study of Mus musculus with 24 samples.

Results

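The genes described here encode the ATP-binding cassette (ABC) proteins of subfamilies A to G, the organic anion transporting polypeptides (SLCO) and the SLC22 carriers of organic cations, organic anions and carnitine. They were chosen by symbol from a liver count table of 22355 genes, and 71 rows carried such a symbol. A mean of at least 0.5 CPM (a gene's count scaled by the total of its library) over the 24 libraries was required, which left 51 members. The rule itself used no measured difference between groups, but it was set with earlier results of these data known. The lowest members were Abcc12 at a mean of 2.21 CPM, Slc22a26 at 2.32 CPM and Slc22a4 at 3.27 CPM, and the highest rows outside were Abca4 at 0.248 CPM, Slco4a1 at 0.2 CPM and Slco5a1 at 0.175 CPM. All 51 members passed the filter on low counts used for testing, and none of the other 20 rows did. Abcc3, Abcb6, Abcb10 and Abcg8 were not analysed here.

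The livers came from diet-induced obese mice, 8 per group, and the labels call them biological replicates. The vehicle group was given vehicle over 4 d and its livers were taken 22 h after the final dose. Both treated groups were given IUB288, a glucagon receptor agonist, over 4 d, and livers were taken 4 h after the final dose in one group and 22 h after it in the other. Every group shared the obesogenic diet. The sources used here gave no strain, age, sex, genotype or dose. There was no vehicle group at 4 h, so in the 4 h comparison the agonist and the time since the last injection cannot be told apart. For the same reason, a difference between 22 h and 4 h cannot be told apart from one that vehicle mice would also show.

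Hepatocytes take up bile acids, drugs, bilirubin and organic ions from blood through SLCO and SLC22 carriers in the basolateral membrane. ABC pumps in the canalicular membrane then use ATP to move bile salts, phospholipid, sterols and conjugates into bile, and other ABCC pumps return substrates to blood. Other ABC proteins work inside the cell: most ABCD proteins feed fatty acids into peroxisomes, and ABCE and ABCF proteins have no membrane part and act on ribosomes. Glucagon receptors are abundant on hepatocytes and raise cyclic AMP.

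Libraries held 14 to 44.1 M counts. Pck1, the gluconeogenic enzyme gene induced by glucagon signalling, averaged 1334 CPM with vehicle, 6641 CPM at 4 h and 3838 CPM at 22 h. Vehicle replicate 1 stood apart: its fat markers summed to 4900 CPM against at most 272 CPM in the other vehicle livers, and Ucp1, the brown fat uncoupling protein gene, reached 1430 CPM in it and at most 0.556 CPM in any treated liver. The 22 h replicates 6 and 7 stood apart in another way. Their summed Kupffer cell and macrophage markers were 155 and 149 CPM (282 to 704 CPM in the other 22 h livers), their endothelial markers 183 and 179 CPM (316 to 448 CPM), and their stellate and fibroblast markers 218 CPM each (444 to 694 CPM). Summed hepatocyte markers ranged from 80200 to 120000 CPM with vehicle, 78000 to 93700 CPM at 4 h and 62700 to 85500 CPM at 22 h. Most of this sum is Alb, the albumin gene, which averaged 70930, 52590 and 46910 CPM. The 10 markers did not move together: 5 were called higher and 4 lower at each time.

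Members went both ways at each time. A member is called higher or lower when its limma-voom adjusted p, corrected over all 11508 genes tested, was under 0.05. At 4 h, 22 of 51 members were called against vehicle (43.1%, beside 44.2% of all genes tested), 10 higher (beside 21.8% of all genes) and 12 lower (beside 22.4%). That share was near the background. In 16 members (31.4%) the lowest mouse of the higher group lay above the highest mouse of the lower group, beside 14.4% of all genes. At 22 h, 27 of 51 members were called against the same vehicle livers (52.9%, beside 36.8%), 11 higher (beside 17.6%) and 16 lower (beside 19.2%), and 5 members had groups that did not overlap (9.8%, beside 6.93%). Between 4 h and 22 h directly, 15 members were called (29.4%, beside 29.2%), 6 higher at 22 h (beside 14.3%) and 9 lower (beside 15%), again near the background, and in 2 members the groups did not overlap (3.92%, beside 9.5%).

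The members' median log2 fold change was -0.08 at 4 h, -0.02 at 22 h and -0.02 between the times, beside -0.07, -0.02 and -0.02 over all genes. Their median absolute log2 fold change was 0.39, 0.38 and 0.26, beside 0.35, 0.28 and 0.26. Without 22 h replicates 6 and 7, 25, 25 and 14 members were called at 4 h, at 22 h and between the times (49%, 49% and 27.5%, beside 46.3%, 29.1% and 24.8% of all genes in that fit). Without these and vehicle replicate 1, 25, 28 and 16 were called (49%, 54.9% and 31.4%, beside 47.4%, 30.5% and 28.2%). In whole liver, fewer cells of a type and less RNA per cell cannot be told apart. Both comparisons with vehicle use the same 8 vehicle livers, so a chance value there moves both.

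**Figure D1:**
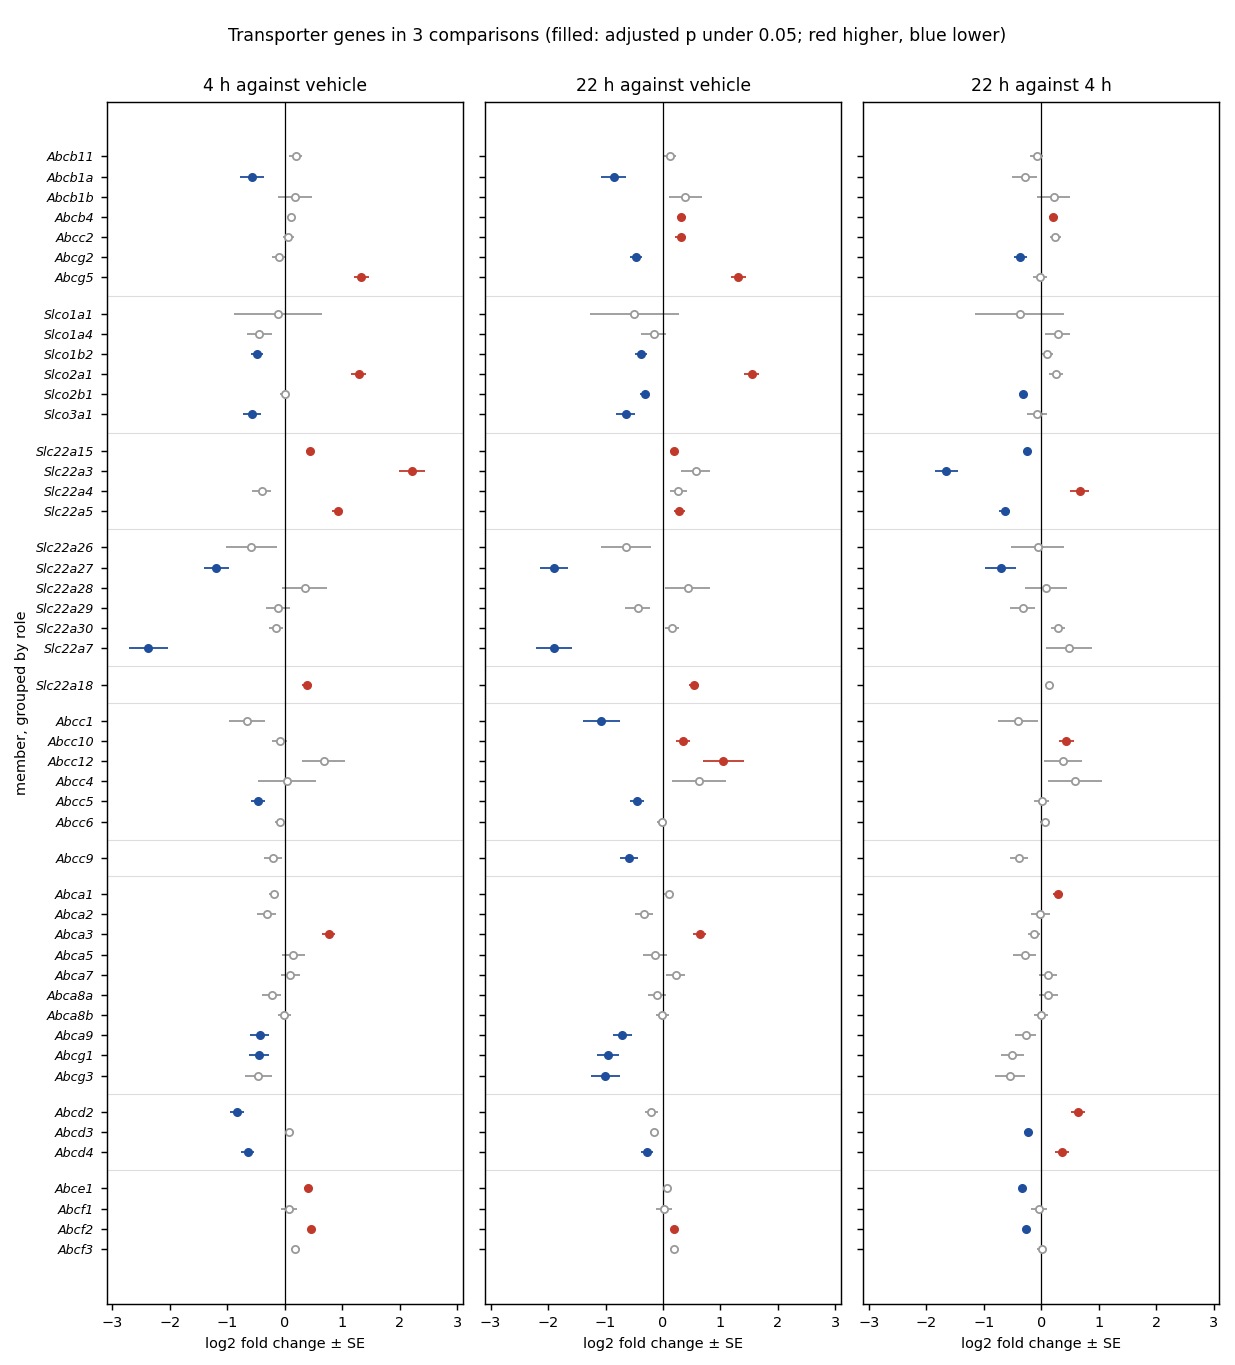
Log2 fold change (x axis, with its standard error from limma-voom) of 48 of the 51 members, grouped by role, in 3 comparisons. Filled red points were called higher, filled blue points lower, and open points did not pass; Slc22a3 and Slc22a7 lie farthest from 0 at 4 h, at 2.21 and -2.38.

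The most abundant members per length were uptake carriers, canalicular pumps and the peroxisomal importer Abcd3. On the scale of CPM per kilobase of annotated exon, Slco1b2 led in all 3 groups, at 537 with vehicle, 368 at 4 h and 409 at 22 h. Abcd3 followed at 184, 187 and 163, and Abcb11 and Abcc2 stood at 149 and 108 with vehicle. Abcg5 moved from rank 11 of 51 to rank 7 in both treated groups, Slc22a3 from rank 33 to 18 at 4 h and 29 at 22 h, and Slc22a7 from rank 32 to 45 and 42. By counts, Slco1b2, Abcd3, Abcc2, Abcb11 and Abcb4 together took 62.5% to 68.2% of all member counts in every liver. Ranks are descriptions, since levels per length depend on the annotated exons.

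**Figure D2:**
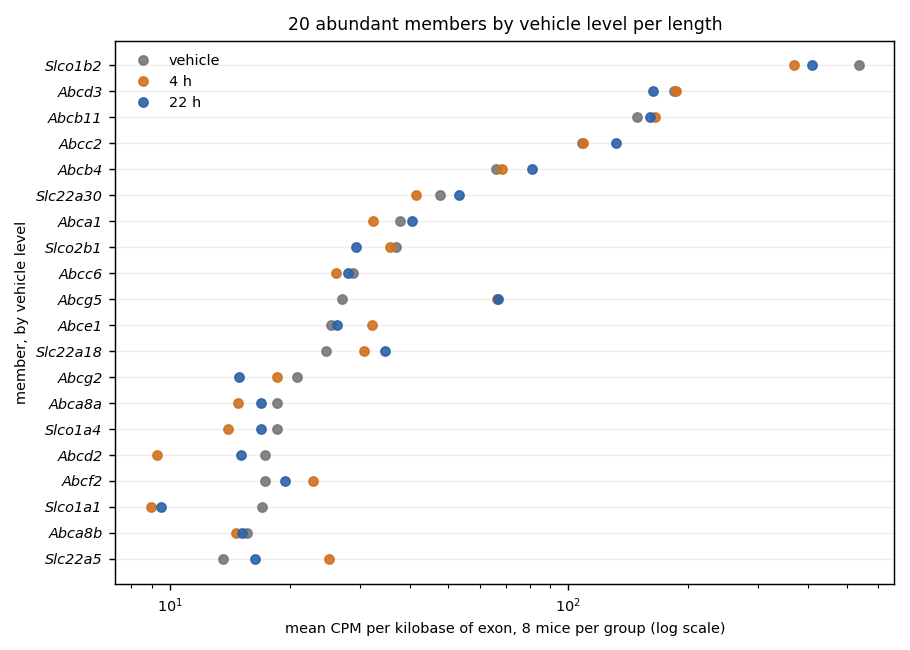
Mean level of 20 abundant members (x axis, CPM per kilobase of exon, log scale), with grey, orange and blue points for vehicle, 4 h and 22 h (8 mice each). Slco1b2 leads in every group, and Abcg5 moves from 27.0 with vehicle to 66.2 and 66.7.

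Among the SLCO uptake carriers, the major hepatocyte form Slco1b2 was lower after IUB288 and the prostaglandin carrier Slco2a1 was higher. Slco1b2 (chr6:141629452-141686646 in GRCm38, plus strand), the mouse carrier of bilirubin, bile acids and many drugs, ranged from 2075 to 3205 CPM with vehicle (median 2684), from 1561 to 2004 CPM at 4 h (median 1828) and from 1489 to 2481 CPM at 22 h (median 1946). All 4 h livers lay below all vehicle livers, and the 22 h livers overlapped them. The log2 fold change was -0.49 ± 0.11 (SE) at 4 h and -0.38 ± 0.11 at 22 h, with limma-voom adjusted p of 0.00097 and 0.00913. Slco2a1 (chr9:103007061-103096002, plus strand), which clears prostaglandins into cells, ran from 18.2 to 30.4 CPM with vehicle (median 24.3), from 43.4 to 71.0 CPM at 4 h (median 58.1) and from 57.9 to 78.0 CPM at 22 h (median 71.0). The gene shares 104 bases of exon with the rRNA gene n-R5s89 on the opposite strand. Neither treated group overlapped vehicle. Slco2a1 rose 2.43-fold at 4 h and 2.91-fold at 22 h (limma-voom adjusted p of 3.45e-08 and 5.08e-09), and the 2 treated groups did not pass between themselves (log2 difference 0.26, adjusted p 0.125, 95% interval 0.00 to 0.51).

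Slco2b1, a carrier of steroid sulfates, was lower at 22 h than in either other group. Its mice ranged from 192 to 243 CPM with vehicle (median 223), from 194 to 228 CPM at 4 h (median 212) and from 150 to 199 CPM at 22 h (median 174). The 22 h livers overlapped the other groups at their upper end. The log2 fold change was 0.00 ± 0.08 at 4 h, -0.32 ± 0.08 at 22 h and -0.32 between the times, the last with limma-voom adjusted p of 0.00234. Slco2b1 shares 471 bases of exon with the antisense gene Gm15635. Slco3a1, a low-level broadly expressed form, averaged 10.1 CPM with vehicle, 6.45 CPM at 4 h and 6.39 CPM at 22 h, with log2 fold changes of -0.57 and -0.65 (limma-voom adjusted p of 0.00558 and 0.00296). Vehicle replicate 1 gave the highest Slco3a1 value, 17.8 CPM, and without it the changes were -0.41 and -0.49, both still called.

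The rodent bile acid and steroid carriers Slco1a1 and Slco1a4 did not pass in any comparison. Slco1a1 was the most uneven member among vehicle mice: replicates 1, 4 and 8 held 207, 222 and 166 CPM, and the other 5 held 7.50 to 51.3 CPM. The treated groups spread from 11.7 to 71.0 CPM at 4 h and from 3.46 to 142 CPM at 22 h. With that spread the 95% interval of the log2 fold change at 22 h ran from -2.10 to 1.11, so sizeable changes either way were not detectable. Slco1a4 averaged 119 CPM with vehicle, 90.1 CPM at 4 h and 108 CPM at 22 h (log2 fold changes -0.45 and -0.16, limma-voom adjusted p of 0.0972 and 0.597). The 4 h value was called when 4 h replicate 3 (adjusted p 0.0155) or 4 h replicate 4 (0.0393) was left out.

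The organic cation and carnitine carriers of the SLC22 family gave the largest rise of any member at 4 h. Slc22a3 (chr17:12419972-12507704, minus strand), the low-affinity carrier of monoamines and other organic cations, held 48.7 CPM in vehicle replicate 1 and 10.3 to 14 CPM in the other 7 vehicle livers. At 4 h it ranged from 53 to 88.3 CPM (median 71.8), and at 22 h from 15.6 to 28.9 CPM (median 22.3). Every 4 h liver lay above every vehicle and every 22 h liver. The rise at 4 h was 4.64-fold (log2 2.21 ± 0.23, limma-voom adjusted p 1.48e-08), and the level at 22 h was lower than at 4 h by -1.65 on the log2 scale (adjusted p 7.06e-07). Against vehicle, the 22 h log2 fold change was 0.57 with adjusted p 0.072. Without vehicle replicate 1 these values were 2.53 at 4 h and 0.885 at 22 h, the latter then called (adjusted p 0.00022). A fit without 22 h replicate 2 called it too (adjusted p 0.0477).

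Slc22a3 shares 420 bases of exon with Plg, the abundant plasminogen gene on the opposite strand, and the strand setting of the counting is not given in the sources used here. Plg averaged 2304 CPM with vehicle, 2266 CPM at 4 h and 2674 CPM at 22 h. Its log2 fold change at 4 h was 0.04 ± 0.09 (limma-voom adjusted p 0.782), beside 2.21 for Slc22a3. At 22 h Plg was called higher than vehicle (0.24 ± 0.09, limma-voom adjusted p 0.0409), beside 0.57 for Slc22a3, not called with all libraries. The part of Plg reads in the Slc22a3 values was not tested. Vehicle replicate 1, the high vehicle value of Slc22a3, is the library with brown fat transcripts. Their part in that value was not tested.

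Slc22a5 (chr11:53864542-53891796, minus strand), the high-affinity carnitine carrier that supplies fatty acid oxidation, showed the same order of groups with smaller differences. It ran from 35 to 47 CPM with vehicle (median 41.7), from 65.6 to 103 CPM at 4 h (median 72.3) and from 44.4 to 60.3 CPM at 22 h (median 49.4). The 4 h livers stood clear of both other groups, while vehicle and 22 h livers overlapped. Slc22a5 rose 1.89-fold at 4 h (limma-voom adjusted p 3.44e-08) and was 1.55-fold lower at 22 h than at 4 h (adjusted p 1.12e-05). The remaining 1.22-fold difference from vehicle at 22 h passed (adjusted p 0.0284) but not when vehicle replicate 3, vehicle replicate 4 or 22 h replicate 7 was left out (adjusted p up to 0.0668), nor without 22 h replicates 6 and 7 together (adjusted p 0.13).

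Slc22a15, a carrier of zwitterions, rose 1.35-fold at 4 h, from 11.4 to 13.9 CPM in vehicle mice to 14.2 to 17.1 CPM (limma-voom adjusted p 5.33e-06). It was lower at 22 h than at 4 h (log2 -0.24, adjusted p 0.00396). Its 22 h difference from vehicle, log2 0.19 (adjusted p 0.0274), did not pass when vehicle replicate 8, 22 h replicate 1 or 22 h replicate 7 was left out (adjusted p up to 0.0598) or without 22 h replicates 6 and 7 together (0.0601). Slc22a4, the ergothioneine carrier beside Slc22a5 on chromosome 11, averaged 3.33 CPM with vehicle, 2.46 CPM at 4 h and 4.01 CPM at 22 h. Only its difference between the times was called (log2 0.67, adjusted p 0.00221), and the 4 h value of -0.40 against vehicle missed the threshold (adjusted p 0.0501). It passed when vehicle replicate 2 or 3, 4 h replicate 2, or 22 h replicate 1, 6 or 7 was left out (adjusted p down to 0.0068), and without 22 h replicates 6 and 7 together (0.0351). Slc22a18, an orphan carrier, rose from a median of 43.5 CPM to 53 CPM at 4 h and 58.8 CPM at 22 h. No treated liver overlapped vehicle, and the rises were 1.31-fold and 1.45-fold (limma-voom adjusted p of 0.000745 and 4.26e-05).

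**Figure D3:**
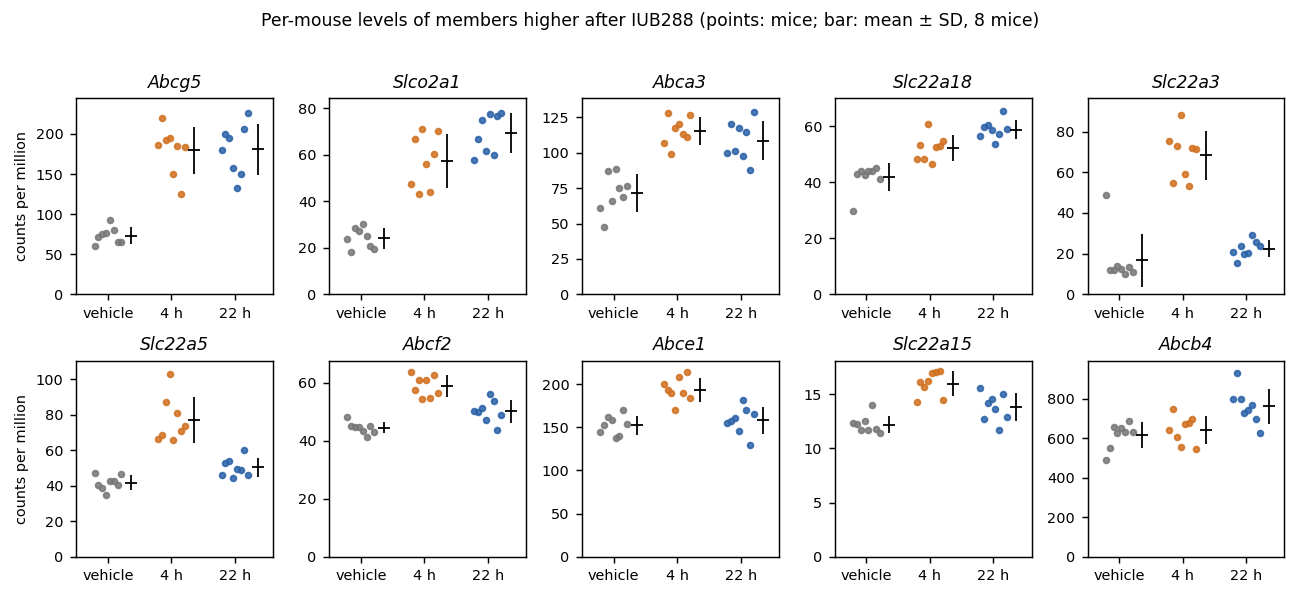
CPM per mouse (y axis, from 0) of 10 members called higher after IUB288 in at least 1 comparison, in vehicle, 4 h and 22 h livers, with mean ± SD over 8 mice. Abcg5, Slco2a1 and Slc22a18 stay above vehicle at 22 h, whereas Slc22a3 and Slc22a5 stand clear at 4 h only, and the single high vehicle point of Slc22a3 is replicate 1.

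Members that were higher at 4 h than with vehicle and lower at 22 h than at 4 h were Slc22a3, Slc22a5, Slc22a15, Abce1 and Abcf2. Both tests use the same 4 h livers, the groups are different mice, and vehicle mice were not sampled at 4 h. Because glucagon receptors act through cyclic AMP, the RefSeq promoter windows of the members (GRCm38.p6, 250 bases before to 50 after the start site) were searched on both strands for the cyclic AMP response element TGACGTCA and for its core TGACG, which every full element contains. The motif and the genes shown were chosen after their values had been seen, and a match is a description of the letters only. A window was found for 41 members, some with several start sites, and 9 of them held the core. By window, 11 of their 49 windows (22.4%) held it, beside 20.8% of 32851 windows of this length. The full element stood in 2 of the 49 (4.08%) and in 1.79% of all windows. These 2 were the window of Abce1 and that of a downstream start site of Abcg2, where it began 37 bases before the start. Abcg2 had a log2 fold change of -0.11 at 4 h, not called, and was called lower at 22 h (-0.47). The core also stood in windows of Abcd3, Abcf1, Abcf3 and Slco2b1, none of them called at 4 h. Of the 5 members higher at 4 h than in both other groups, 4 held the core. It began 80 bases before the start site in Slc22a3, 97 bases before it in Slc22a5 and 91 bases before the upstream start of Abcf2. Abce1 held the full element 10 bases before its start. The window of Slc22a15 had no match, but it belongs to a start site inside the gene, and the outer start was not searched. Of 9 members called higher at 4 h with a window, 4 held the core, and of 5 called lower, 0 did, beside 22% of the 41 members. Only these 5 of the 12 members called lower had a window, and no share per gene over all genes was taken. Whether the core bears on the changes was not tested. The 120 bases before the start site are shown for Slc22a3, Slc22a5, Abcf2 and Abce1. To set beside them, Abcg5 and Slco2a1 are shown, which were called higher at both times and whose windows held no match. The Slco2a1 window belongs to a start site inside the gene span given above, and the outer start was not searched. Capitals mark the core or the full element, and letters run 5′ to 3′ along the gene's strand.
Slc22a3 (chr17:12507705-12507824, minus strand): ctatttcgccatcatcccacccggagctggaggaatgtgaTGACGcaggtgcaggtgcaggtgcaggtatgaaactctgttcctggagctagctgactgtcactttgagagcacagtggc
Slc22a5 (chr11:53891704-53891823, minus strand): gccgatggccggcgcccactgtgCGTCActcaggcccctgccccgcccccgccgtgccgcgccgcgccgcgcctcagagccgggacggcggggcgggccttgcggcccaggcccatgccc
Abcf2 (chr5:24577468-24577587, minus strand): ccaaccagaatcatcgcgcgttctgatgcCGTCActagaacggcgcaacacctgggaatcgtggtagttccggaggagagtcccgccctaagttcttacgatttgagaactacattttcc
Abce1 (chr8:79711741-79711860, minus strand): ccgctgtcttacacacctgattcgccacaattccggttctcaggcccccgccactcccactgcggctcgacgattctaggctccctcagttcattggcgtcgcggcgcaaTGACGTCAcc
Abcg5 (chr17:84683012-84683131, minus strand): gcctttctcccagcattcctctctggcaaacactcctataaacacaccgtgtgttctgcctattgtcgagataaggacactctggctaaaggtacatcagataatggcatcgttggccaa
Slco2a1 (chr9:103008367-103008486, plus strand): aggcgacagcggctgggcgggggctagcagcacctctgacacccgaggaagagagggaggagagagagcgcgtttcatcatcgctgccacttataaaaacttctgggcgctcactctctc

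The organic anion carriers of the SLC22 family held the largest falls of any member. Slc22a7 (chr17:46432185-46438477, minus strand), a basolateral carrier of organic anions and nucleotides, ranged from 5.79 to 13.2 CPM with vehicle (median 7.12), from 0.949 to 3.73 CPM at 4 h (median 1.23) and from 0.747 to 8.47 CPM at 22 h (median 1.96). The 4 h livers lay below all vehicle livers, and at 22 h a single mouse, replicate 6, reached the vehicle range. Slc22a7 was 5.2-fold lower at 4 h (log2 -2.38 ± 0.34, limma-voom adjusted p 3.06e-06) and 3.71-fold lower at 22 h (adjusted p 4.81e-05).

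Slc22a27 (chr19:7864388-7966517, minus strand), a rodent organic anion carrier, ran from 15.8 to 38.1 CPM with vehicle (median 28.2), from 9.08 to 14.1 CPM at 4 h (median 11.8) and from 2.81 to 15.8 CPM at 22 h (median 6.85). Treated mice were low throughout, and only the highest 22 h mouse met the lowest vehicle mouse. It was 2.28-fold lower at 4 h and 3.72-fold lower at 22 h (limma-voom adjusted p of 7.56e-05 and 1.55e-06). The further fall from 4 h to 22 h was -0.71 on the log2 scale with adjusted p 0.0478, and 18 of the 24 fits that left out a single library did not call it (adjusted p up to 0.132), all but those without vehicle replicate 1 or 5, 4 h replicate 7 or 22 h replicate 4, 5 or 8. Without 22 h replicates 6 and 7 it was -0.47 (adjusted p 0.226).

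The neighbours of Slc22a27 on chromosome 19 did not pass against vehicle at either time. Slc22a30 averaged 161, 140 and 179 CPM, Slc22a29 10.7, 9.37 and 8.22 CPM, Slc22a28 4.5, 5.34 and 6.52 CPM, and Slc22a26 3.03, 1.85 and 2.07 CPM in vehicle, 4 h and 22 h livers. Slc22a29 was called lower at 22 h when 22 h replicate 8 was left out (limma-voom adjusted p 0.0341). These genes are close copies of each other, so how the authors' counting split reads between them is uncertain, and the Slc22a27 values carry the same uncertainty.

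**Figure D4:**
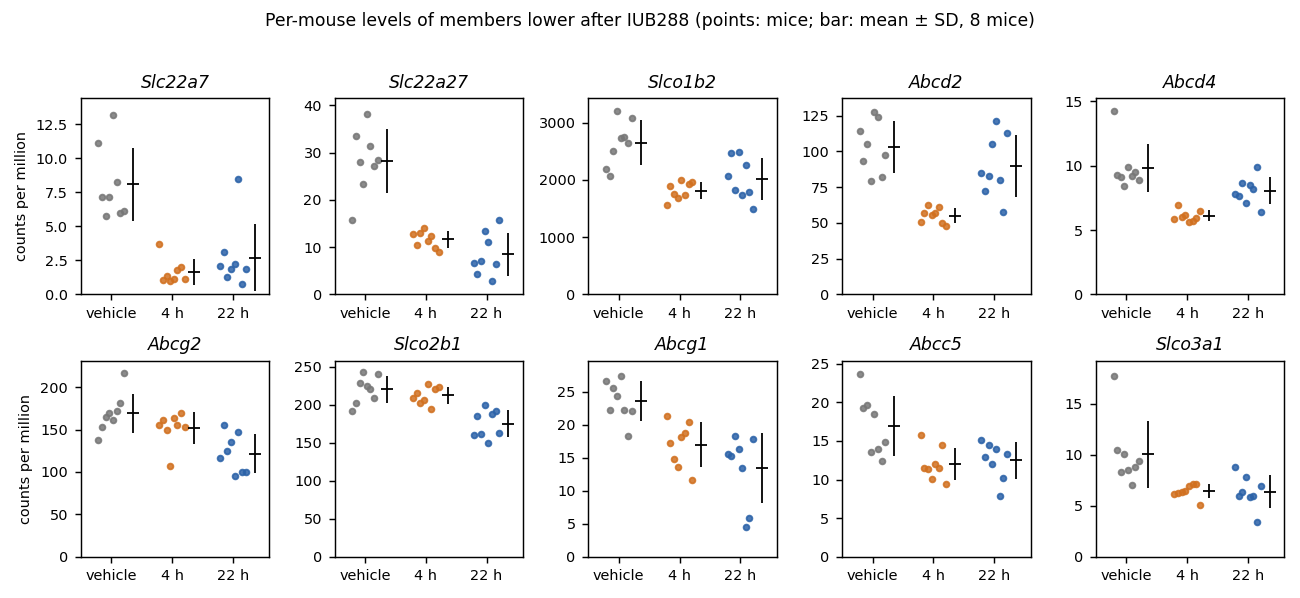
CPM per mouse (y axis, from 0) of 10 members called lower after IUB288 in at least 1 comparison, with mean ± SD over 8 mice per group. Slc22a7 and Slco1b2 are low at both times, Abcd2 is lowest at 4 h, and Abcg2 and Slco2b1 are lower at 22 h.

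In the canalicular membrane the sterol pump changed most. Abcg5 (chr17:84658174-84683011, minus strand), which with its partner exports cholesterol and plant sterols into bile, ran from 60.4 to 92.7 CPM with vehicle (median 73.9), from 126 to 220 CPM at 4 h (median 186) and from 132 to 226 CPM at 22 h (median 187). All 16 treated livers lay above all vehicle livers, and the treated groups coincided. The rise was 2.52-fold at 4 h and 2.48-fold at 22 h (limma-voom adjusted p of 4.12e-09 and 2.02e-08), and the difference between the times had a 95% interval of -0.28 to 0.23 on the log2 scale. Abcg5 shares 82 bases of exon with Abcg8 on the other strand.

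The phospholipid and conjugate pumps were modestly higher at 22 h. Abcb4, which flips phosphatidylcholine into bile, ran from 489 to 688 CPM with vehicle (median 631), from 544 to 750 CPM at 4 h (median 656) and from 628 to 931 CPM at 22 h (median 756). Vehicle and 22 h livers overlapped. Abcb4 was 1.25-fold higher at 22 h than with vehicle (limma-voom adjusted p 0.00231), and at 4 h its log2 fold change was 0.11 (adjusted p 0.267). The 0.21 difference between the times (adjusted p 0.0404) was not called in 10 of 24 fits with a library left out, those without 4 h replicates 1, 3, 4, 5, 6 or 8 or 22 h replicates 1, 2, 3 or 6 (adjusted p up to 0.0945), nor without 22 h replicates 6 and 7 together (0.0816). Abcc2, which exports bilirubin glucuronide, had medians of 979 CPM with vehicle, 944 CPM at 4 h and 1134 CPM at 22 h. Its 22 h log2 fold change was 0.30 ± 0.10 (limma-voom adjusted p 0.0169), and the difference between the times missed the threshold (0.24, adjusted p 0.0655) but passed when vehicle replicate 1, vehicle replicate 2 or 22 h replicate 7 was left out (adjusted p down to 0.0247) and without 22 h replicates 6 and 7 together (0.035).

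Abcb11, the bile salt export pump, did not pass in any comparison. It ranged from 623 to 944 CPM with vehicle (median 761), from 609 to 1076 CPM at 4 h (median 888) and from 573 to 1068 CPM at 22 h (median 818), with full overlap. The 95% intervals of its log2 fold change were -0.04 to 0.43 at 4 h and -0.12 to 0.35 at 22 h. Abcg2, which exports urate and sulfated conjugates, had medians of 167, 156 and 121 CPM and was lower at 22 h than with vehicle (log2 -0.47 ± 0.11, limma-voom adjusted p 0.00158) and than at 4 h (-0.36, adjusted p 0.0124). The groups overlapped, since 22 h livers reached 156 CPM and the lowest vehicle liver held 138 CPM.

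Of the drug pumps, Abcb1a, a P-glycoprotein gene, averaged 38.8 ± 9.15 CPM with vehicle, 25.2 ± 7.47 CPM at 4 h and 21.6 ± 8.13 CPM at 22 h (SD, n = 8 each). Its log2 fold change was -0.57 at 4 h and -0.86 at 22 h (limma-voom adjusted p of 0.0264 and 0.00263), and the 4 h difference did not pass when vehicle replicate 3 or 5 or 4 h replicate 4 or 8 was left out (adjusted p up to 0.0641). The close copy Abcb1b averaged 3.28, 3.22 and 3.72 CPM and did not pass. It was called higher at 22 h without vehicle replicate 1, which held 7.83 CPM (adjusted p 0.0383). Reads of the pair may be divided uncertainly. Abcb1a also shares 553 bases of exon with Gm42686 on the opposite strand.

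The ABCC pumps toward blood held low-level changes in both directions. Abcc5, an exporter of cyclic nucleotides, averaged 17.0 CPM with vehicle, 12.0 CPM at 4 h and 12.5 CPM at 22 h (log2 -0.46 and -0.45, limma-voom adjusted p of 0.00346 and 0.0053). Without 22 h replicates 6 and 7 and vehicle replicate 1 the 22 h value was -0.25 and no longer called (adjusted p 0.0663). Abcc1, the leukotriene C4 exporter, held 28.1 CPM in vehicle replicate 1 and 5.29 to 7.15 CPM in the other vehicle livers. Treated livers overlapped the latter, at 1.46 to 6.33 CPM of Abcc1. Its 22 h log2 fold change of -1.07 (adjusted p 0.0125) was -0.71 without vehicle replicate 1 and -0.79 without 22 h replicates 6 and 7, the latter not called (adjusted p 0.0705), and -0.41 with all of these left out (adjusted p 0.046).

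Abcc10 averaged 9.65, 8.94 and 12.5 CPM and was higher at 22 h than at 4 h (log2 0.44, limma-voom adjusted p 0.00895) and than with vehicle (0.35, adjusted p 0.0264). The latter was not called when vehicle replicate 5, 22 h replicate 6 or 22 h replicate 7 was left out (adjusted p up to 0.0547), nor without both of these 22 h livers (0.131). Abcc12, the lowest member, was 2.07-fold higher at 22 h (1.38 against 3.04 CPM, adjusted p 0.0253), but did not pass when vehicle replicate 1, 22 h replicate 3 or 22 h replicate 5 was left out (adjusted p up to 0.0628). Abcc6, the hepatic pump whose loss causes ectopic calcification, had medians of 170, 152 and 159 CPM and did not pass, with a 95% interval of -0.20 to 0.16 at 22 h.

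Abcc4, a basolateral exporter of bile acids and cyclic nucleotides, split the 22 h mice. It ran from 7.46 to 19.2 CPM with vehicle and from 5.49 to 12.3 CPM at 4 h. At 22 h, replicates 3, 5 and 8 held 48.5, 50.6 and 48.7 CPM, replicates 6 and 7 held 3.67 and 3.43 CPM, and the other 3 held 9.00 to 17.4 CPM. The 3 high livers lay above every other liver of the study. The group difference did not pass (log2 0.63, limma-voom adjusted p 0.306, 95% interval -0.33 to 1.60), while without 22 h replicates 6 and 7 it was 1.27 (adjusted p 0.0108). The difference between the times went likewise from 0.60 (limma-voom adjusted p 0.374) to 1.26 without these livers (adjusted p 0.0119).

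Among the sterol and lipid proteins Abca3 was higher at both times and the macrophage sterol exporter Abcg1 lower. Abca3 (chr17:24351921-24410204, plus strand), best known for loading phospholipid into lamellar bodies of the lung, ran from 47.8 to 88.5 CPM with vehicle (median 72.0), from 98.7 to 128 CPM at 4 h (median 115) and from 87.7 to 129 CPM at 22 h (median 108). All 4 h livers lay above vehicle, and the 22 h livers met it only at their lowest value. The rises were 1.7-fold and 1.56-fold (limma-voom adjusted p of 3.8e-06 and 9.41e-05). Abca3 shares 914 bases of exon with the transcript D330041H03Rik on the opposite strand.

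Abca1, which loads cholesterol onto apolipoprotein A-I, had medians of 398, 341 and 440 CPM. It did not pass against vehicle at 4 h (log2 -0.18, limma-voom adjusted p 0.0965) or at 22 h (0.10, adjusted p 0.388), but was higher at 22 h than at 4 h (0.28 ± 0.09, adjusted p 0.0162). The 4 h difference was called without vehicle replicate 2, without 22 h replicate 7 (adjusted p down to 0.0419), and without 22 h replicates 6 and 7 together (0.0279).

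Abcg1 (chr17:31057694-31117984, plus strand), which moves cholesterol to high-density lipoprotein, ran from 18.2 to 27.4 CPM with vehicle (median 23.3), from 11.6 to 21.4 CPM at 4 h (median 17.6) and from 4.54 to 18.3 CPM at 22 h (median 15.4). The 22 h mice met the vehicle range only at its lower edge. The log2 fold change was -0.45 at 4 h (limma-voom adjusted p 0.0465, not called in 13 of 24 fits with a library left out, those without vehicle replicates 1, 3, 4, 5, 6 or 8, 4 h replicates 2, 3, 4, 5, 6 or 8 or 22 h replicate 5, at adjusted p up to 0.0917) and -0.95 at 22 h (adjusted p 0.000478), the latter -0.59 without 22 h replicates 6 and 7 (adjusted p 0.000168). Abca9 fell from 13.7 to 9.67 and 8.56 CPM (log2 -0.44 and -0.71, adjusted p of 0.0322 and 0.00198), and its 4 h change was not called in 9 of 24 such fits, those without vehicle replicates 3, 4, 5 or 6 or 4 h replicates 2, 3, 4, 5 or 7 (adjusted p up to 0.0775). Abcg3, a rodent relative of Abcg2, averaged 12.5, 8.86 and 6.86 CPM and was called lower at 22 h (2-fold, adjusted p 0.00262), and at 4 h only without vehicle replicate 1 (adjusted p 0.0475) or without 22 h replicates 6 and 7 (0.0267). Abcc9, the sulfonylurea receptor subunit of potassium channels, averaged 84.2, 70.7 and 57.9 CPM and was also called at 22 h (log2 -0.59, adjusted p 0.00486).

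Markers of other liver cells moved with these falls. At 22 h all 11 endothelial markers tested were called lower, 10 of 11 stellate and fibroblast markers, 7 of 10 Kupffer cell and macrophage markers, 6 of 11 T, NK and B cell markers and 3 of 8 cholangiocyte markers, and none higher, beside 19.2% of all genes called lower. At 4 h the lower counts were 5 of 11, 7 of 11, 3 of 10, 5 of 11 and 4 of 8, in the same order, beside 22.4% of all genes. The Kupffer cell and macrophage share at 4 h (30%) was near that background. Summed Kupffer cell and macrophage markers ran from 393 to 1170 CPM with vehicle, 332 to 627 CPM at 4 h and 149 to 704 CPM at 22 h, endothelial markers from 419 to 738, 381 to 495 and 179 to 448 CPM, and stellate and fibroblast markers from 748 to 1470, 387 to 738 and 218 to 694 CPM. T, NK and B cell markers summed to 47.8 to 120, 33.1 to 57.9 and 21.6 to 71.2 CPM, and cholangiocyte markers to 114 to 591, 64.8 to 271 and 84.5 to 205 CPM. No marker of these lists averaged under 0.1 CPM in any group. The 22 h livers lowest in these sums, replicates 6 and 7, were also lowest of the 22 h livers in Abcg1 (4.54 and 5.84 CPM), Abcb1a (11.3 and 11 CPM) and Abcc9 (31.1 and 29 CPM). The part of these cells in the falls of Abcg1, Abca9, Abcg3, Abcc9, Abcb1a, Abcc1, Abcc5 and Slco3a1 was not tested.

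**Figure D5:**
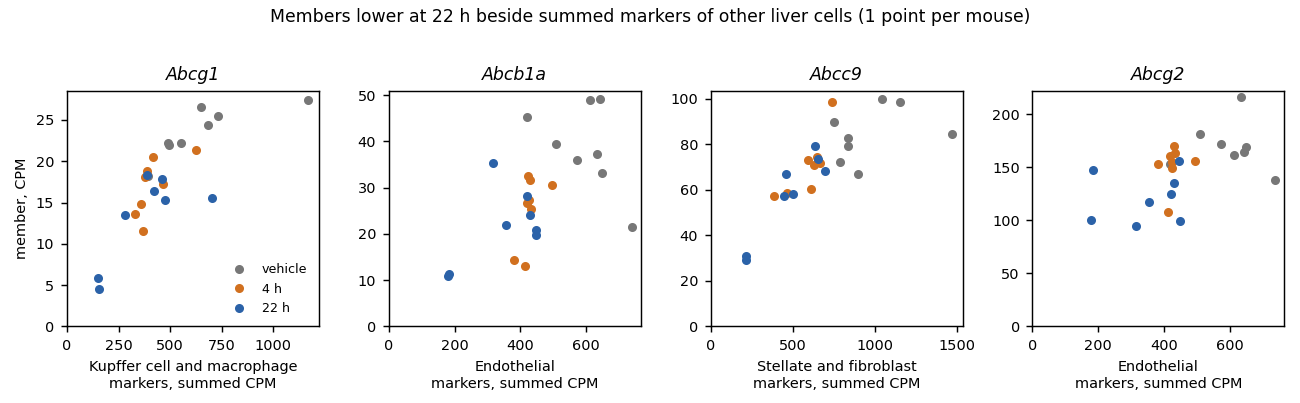
CPM of 4 members (y axis) against the summed CPM of a marker list of other liver cells (x axis), 1 point per mouse, in grey, orange and blue for vehicle, 4 h and 22 h. In Abcg1, Abcb1a and Abcc9 the 2 blue points at lower left are 22 h replicates 6 and 7. The list is Kupffer cell and macrophage for Abcg1 (sums of 155 and 149 CPM in these livers) and stellate and fibroblast for Abcc9 (218 CPM each). For Abcb1a and Abcg2 it is endothelial (183 and 179 CPM). Their Abcg2 values lie within the range of the other 22 h livers.

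The remaining lipid members did not pass in any comparison: Abca2, Abca5, Abca7, Abca8a and Abca8b. Vehicle replicate 1 held 20.9 CPM of Abca7, a phospholipid and phagocytosis gene, against 7.01 CPM in the lowest vehicle liver. Without it Abca7 was called higher at both times, with log2 fold changes of 0.33 and 0.45 (limma-voom adjusted p of 0.000807 and 4.59e-05). Abca8a and Abca8b, close copies, averaged 117 and 116 CPM with vehicle, 93.1 and 109 CPM at 4 h and 106 and 113 CPM at 22 h. Abca8a was called lower at 4 h when vehicle replicate 2 was left out (adjusted p 0.0134).

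Among the ABCD proteins Abcd2 and Abcd4 were lower at 4 h. Abcd2 (chr15:91145871-91192007, minus strand), which imports very long-chain and polyunsaturated fatty acids into peroxisomes, ran from 79.3 to 128 CPM with vehicle (median 101), from 47.8 to 62.4 CPM at 4 h (median 56) and from 57.8 to 122 CPM at 22 h (median 84.0). The 4 h livers lay below all vehicle livers and the 22 h livers spread across both ranges. Abcd2 was 1.79-fold lower at 4 h than with vehicle (log2 -0.84 ± 0.12, limma-voom adjusted p 3.66e-06) and higher at 22 h than at 4 h (0.64, adjusted p 0.000206). Against vehicle its 22 h log2 fold change was -0.20 (adjusted p 0.191). Abcd4, which exports cobalamin from lysosomes, followed: medians of 9.24, 5.97 and 8.01 CPM, log2 -0.64 at 4 h (adjusted p 3.54e-05) and 0.36 between the times (adjusted p 0.0175). Its 22 h difference from vehicle (-0.28, adjusted p 0.036) did not pass when vehicle replicate 1 or 5 or 22 h replicate 1, 2, 4 or 8 was left out (adjusted p up to 0.098), and the change between the times did not pass without 22 h replicates 6 and 7 together (0.0585).

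Abcd3, which imports branched-chain fatty acids and bile acid intermediates, had medians of 1182, 1222 and 1042 CPM. It was lower at 22 h than at 4 h (log2 -0.24, adjusted p 0.0139) but did not pass against vehicle at 22 h (-0.16, adjusted p 0.0908), where it was called without vehicle replicate 2, without 22 h replicate 6 (adjusted p down to 0.0153), and without 22 h replicates 6 and 7 together (-0.22, adjusted p 0.0183).

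Of 18 other peroxisomal import and oxidation genes tested, 1 was called higher and 9 lower at 4 h (5.56% and 50% of the list, beside 21.8% and 22.4% of all genes), and 0 higher and 6 lower at 22 h (0% and 33.3%, beside 17.6% and 19.2%). Pex11a, which divides peroxisomes, fell by 1.08 and 0.97 on the log2 scale. Of 5 carnitine enzymes set beside Slc22a5, 1 was higher and 2 lower at 4 h (20% and 40%, beside 21.8% and 22.4% of all genes): Cpt2 had a log2 fold change of 0.36, Bbox1, the last step of carnitine synthesis, -0.30 and Crat, carnitine acetyltransferase, -0.44.

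The ribosome-bound members rose at 4 h or did not pass. Abce1 (chr8:79683442-79711740, minus strand), which splits terminated ribosomes, ran from 138 to 170 CPM with vehicle (median 154), from 170 to 214 CPM at 4 h (median 191) and from 130 to 182 CPM at 22 h (median 159). The 4 h livers lay above all vehicle livers, by a small margin, and the 22 h livers spread around the vehicle range. Abce1 was 1.32-fold higher at 4 h than with vehicle (limma-voom adjusted p 5.38e-06) and lower at 22 h than at 4 h (log2 -0.33, adjusted p 0.000109). Abcf2 (chr5:24565341-24577467, minus strand), a cytosolic ABC protein, ran from 41.5 to 48.4 CPM with vehicle (median 44.8), from 54.3 to 63.9 CPM at 4 h (median 59.2) and from 43.6 to 56.3 CPM at 22 h (median 50.1). The 4 h livers did not overlap vehicle. Abcf2 rose 1.37-fold at 4 h (adjusted p 7.57e-08) and was 1.14-fold above vehicle at 22 h (adjusted p 0.00517).

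Abcf3, a partner of the translation stress pathway, stood just outside the threshold, with log2 fold changes of 0.19 at each time (limma-voom adjusted p of 0.051 and 0.0504). It passed in 8 of 24 fits with a library left out at each time, among them those without vehicle replicate 1 or 5 at both times (adjusted p down to 0.0232 and 0.0204). The other 6 left out 4 h replicate 5 or 6 or 22 h replicate 1, 3, 5 or 6 at 4 h, and 4 h replicate 4, 6 or 8 or 22 h replicate 1, 3 or 4 at 22 h. Without 22 h replicates 6 and 7 together it passed at 4 h (adjusted p 0.0401). Abcf1 did not pass (medians of 28.9, 31.0 and 32.3 CPM). In a wider list of genes of ribosome recycling and stalled ribosomes, 8 were tested. Of these, 4 were higher and 1 lower at 4 h, and 4 and 1 at 22 h (50% and 12.5% at each time, beside 21.8% and 22.4% of all genes at 4 h and 17.6% and 19.2% at 22 h). Etf1, Gspt1, Eif6 and Zfp598 were higher and Eif2ak4 lower at both times. Pelo did not pass (log2 -0.05 at 4 h, limma-voom adjusted p 0.746). Etf1, the termination factor that acts before Abce1, rose by 0.76 at 4 h and 0.32 at 22 h on the log2 scale, and was lower at 22 h than at 4 h (-0.44).

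Other carriers and regulators of the same transport pathway also moved in both directions. A list of 12 further genes tested held carriers of bile acids and nucleosides, the lipid transfer gene Mttp, and Tap1, Tap2 and Cftr, which encode ABC proteins but carry symbols outside the rule. In it 1 gene was higher and 3 lower at 4 h (8.33% and 25%, beside 21.8% and 22.4% of all genes), and 1 and 4 at 22 h (8.33% and 33.3%, beside 17.6% and 19.2%). Tap2, a subunit of the peptide transporter of antigen presentation, was among the lower genes, at -0.84 and -0.98 on the log2 scale (limma-voom adjusted p of 0.0492 and 0.0295). Slc10a1, the main sodium-dependent bile acid uptake carrier, averaged 440.1, 388.6 and 509.3 CPM and did not pass (limma-voom adjusted p of 0.532 at 4 h and 0.335 at 22 h). Of 12 sterol efflux partners, 1 was higher and 6 lower at 4 h (8.33% and 50%, beside 21.8% and 22.4% of all genes), and 3 and 6 at 22 h (25% and 50%, beside 17.6% and 19.2%). Pltp, which transfers phospholipid between lipoproteins, fell by 1.53 and 1.89 on the log2 scale.

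Of 29 regulators of transporter genes tested, 6 were higher and 11 lower at 4 h (20.7% and 37.9%, beside 21.8% and 22.4% of all genes). At 22 h 10 were higher and 4 lower (34.5% and 13.8%, beside 17.6% and 19.2%), and 9 were higher and 3 lower at 22 h than at 4 h (31% and 10.3%, beside 14.3% and 15%). The share higher at 4 h was near the background, and the shares lower at 22 h and between the times were below it. Nr1h4, the bile acid receptor that drives Abcb11, changed by -0.46 at 4 h and 0.16 at 22 h on the log2 scale, the former called. Its target Nr0b2 changed by -1.87 and 0.48, again called at 4 h only, and by 2.35 between the times. Nr1i3, the constitutive androstane receptor of drug response genes, fell by 1.97 at 4 h and by 0.70 at 22 h. Nr1i2, the pregnane X receptor, rose by 0.50 at 4 h and was at -0.07 at 22 h, and Hnf4a, the hepatocyte nuclear factor, rose by 0.56 and 0.75. Ppara, the fatty acid receptor that drives peroxisomal genes, fell by 0.59 and 0.40. Whether these changes bear on the transporter genes was not tested.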

How the data were processed

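The authors deposited whole-number read counts per gene for 24 livers, named by Entrez number and symbol. The submitters' processing notes name cutadapt, GSNAP and the build GRCm38. RNA came from frozen liver and libraries from the KAPA mRNA HyperPrep kit, per the labels' protocols. Tool versions, the counting tool, its annotation and its strand setting are not given in the sources used here.

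The file's quoted layout could not be read as counts by the unit check, so tests that require accepted counts were not run, and limma-voom took their place, as the design had named for that case. Genes passed a filter (minimum count 10, minimum total 15, by group) that kept 11508 genes with 99.92% of counts. Counts were scaled by TMM (factors 0.897 to 1.06), weighted by voom with an offset of 0.5, and fitted in limma 3.58.1 under R 4.3.3 with a mean per group, 21 residual and 4.08 prior degrees of freedom. Tests were 2-sided, and Benjamini-Hochberg adjustment ran across the genes kept, with a threshold of 0.05. The procedure was tested on simulated data.

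CPM values divide by column totals. Exon lengths, strands and overlaps come from GENCODE M21, gene coordinates and promoters from RefSeq. Named genes were a fixed textbook list, for each comparison the 6 largest rises and 6 largest falls among called members that reached 1 CPM in a group, and those nearest the 0.5 CPM limit. Genes outside that rule were named after their values were seen. The members and gene lists were chosen with earlier results of these data known. Library pairs within a group differed beyond counting noise (chi-square per degree of freedom 19.3 to 310 over 84 pairs), so no library was a near copy of another in its group. That all 24 are biological replicates rests on the labels. Single results of some genes are not reported here, though counts include them.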

Additional observations from a re-analysis of the deposited data

Results flagged for a closer look

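In 17 of 153 member and group combinations a single mouse stood far from the other 7. Chance marks about 1 in 20 such groups. Vehicle replicate 1, the library with brown fat transcripts, gave 8 of the 17: it was highest in Abca2 (89.45 CPM), Abca7 (20.92 CPM), Abcc1 (28.11 CPM), Abcc4 (19.22 CPM), Abcd4 (14.2 CPM), Slc22a3 (48.72 CPM) and Slco3a1 (17.77 CPM), and lowest in Slc22a18 (29.75 CPM). Their link with the fat transcripts was not tested. The other 9 came from 7 libraries. At 22 h, Abcc10 reached 18.41 CPM in replicate 7 and Slc22a7 8.466 CPM in replicate 6. At 4 h, replicate 1 was high in Abcc9 (98.36 CPM) and Slc22a7 (3.735 CPM), replicate 8 was high in Abcf1 (43.01 CPM) and Slc22a28 (9.372 CPM), and replicate 4 was low in Abcg2 (107.5 CPM). Among vehicle mice, Abcf1 was high in replicate 2 (61.73 CPM) and Slc22a15 in replicate 6 (13.95 CPM).

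Levels at 22 h and 4 h after IUB288 differed in 15 members by the direct test (limma-voom, adjusted over all genes), 29.4% of members beside 29.2% of all genes tested. The log2 differences, 22 h minus 4 h, were positive in Abca1 (0.285), Abcb4 (0.2117), Abcc10 (0.4378), Abcd2 (0.6363), Abcd4 (0.3613) and Slc22a4 (0.6675). They were negative in Abcd3 (-0.2353), Abce1 (-0.3268), Abcf2 (-0.2632), Abcg2 (-0.362), Slc22a15 (-0.2446), Slc22a27 (-0.7069), Slc22a3 (-1.649), Slc22a5 (-0.6359) and Slco2b1 (-0.3167). In Abcd2, Abcd4 and Slc22a4 the level was lowest at 4 h, and in Slc22a3, Slc22a5, Slc22a15, Abce1 and Abcf2 it was highest at 4 h.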

How the results depend on the processing

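All 64 member calls kept their direction under every alternative. Values that did not pass could change sign: Slc22a26 between the times was -0.06, but -0.99 with replicates 1 to 4 alone and 0.94 with replicates 5 to 8 alone. Of these calls, 62 were kept with median-of-ratios scaling, 62 with a stricter filter, 59 with no filter, 62 with sample quality weights, 60 with only the libraries of a comparison, 64 with a covariate for library numbers 80 to 91 against 92 to 103, and 62 with an intensity trend in place of voom. The trend and the fits without 22 h replicates 6 and 7 (56 kept), and without these and vehicle replicate 1 (58 kept), were added after seeing the data. Median-of-ratios scaling moved the median of all genes by at most 0.012 (log2). Leaving out each library in turn gave 19 to 24 members called at 4 h, 24 to 29 at 22 h and 13 to 17 between the times. With replicates 1 to 4 alone, where fewer mice enter, 33 calls were kept: at 22 h 11 members were called, 6 higher and 5 lower, and between the times 5, 1 higher and 4 lower. With replicates 5 to 8 alone, 41 were kept, and between the times 7 members were called, 3 of them lower.

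With the replicate number as a block, 24, 27 and 14 members were called at 4 h, at 22 h and between the times and 62 of the 64 calls were kept. The numbers were not stated to pair the mice. The correlation of same-numbered libraries of different groups ran from -0.219 to 0.134. Of these 24 pairs of libraries, 5 were each other's best match between their groups. These values do not settle whether the numbers mark a pairing. Count models other than limma-voom that had been listed as alternatives were not run, since the unit check did not accept the table. Groups of 8 mice leave uneven members such as Slco1a1 and Abcc4 with wide intervals.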
